A study of Homo sapiens with 6 samples.

Results

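The CDK inhibitor, D cyclin and CDK6 transcripts were examined in MCF10A, a human line of mammary epithelial origin that is established and does not form tumors. They comprised 10 genes of the 20802 with an amplicon and were chosen by gene symbol: the CIP/KIP inhibitors CDKN1A, CDKN1B and CDKN1C, the INK4 inhibitors CDKN2A, CDKN2B and CDKN2C, the D cyclins CCND1, CCND2 and CCND3, and the kinase CDK6. Each of them had 1 amplicon in the deposited data. Of the 6 libraries, all labelled MCF10A, 2 were labelled wt (WT, by that label the parental cells). Another 2 were from cells stably overexpressing eGFP, the vector control. The last 2 were from cells stably overexpressing the product of KCNJ3, the potassium channel subunit GIRK1. The eGFP and GIRK1 cells carried the pIRES2eGFP plasmid without and with the GIRK1 coding sequence, were selected with G418, and therefore shared eGFP expression and drug selection, which the WT cells lacked. RNA was amplified with 1 short amplicon per gene and the reads on each amplicon were counted (Ion AmpliSeq Transcriptome). RPM is an amplicon's read count scaled to the total of its library.

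D cyclins bind CDK4 and CDK6, and the active kinase phosphorylates the RB protein, which releases E2F factors and lets a cell pass from G1 into S phase. INK4 proteins bind CDK4 and CDK6 and keep D cyclins away from them, whereas CIP/KIP proteins bind whole cyclin-CDK complexes and inhibit above all those with CDK2. In mammary epithelium cyclin D1 is needed for lobular outgrowth in pregnancy, and loss of the INK4 locus is a known feature of the MCF10A line.

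Totals ran from 2506120 reads (WT replicate 1) to 16040556 (WT replicate 2), with 5126930 to 11107309 in the other 4, so that 3 reads, the smallest level taken as detectable, corresponded to 0.187 to 1.20 RPM. KCNJ3 had 2408 and 3677 reads in the GIRK1 libraries, 0 in both eGFP libraries and WT replicate 2, and 48 in WT replicate 1. The library labelled WT replicate 1 stood apart, and whether it came from MCF10A cells was not tested. The SD of its log2 ratio to the other libraries over 9212 genes was 1.70 to 1.74, against 0.311 to 0.912 among the other 5. All 13 luminal mammary markers had reads in it, among them ESR1 (192 RPM), TFF1 (5106 RPM) and KRT19 (924 RPM), which had 0 in the other 5 libraries, where 7 to 9 of the 13 had reads. The 12 basal markers summed to 390 RPM there, against 15502 to 35421 RPM in the other libraries, with KRT5 at 2 reads and KRT14 at 0. The basal marker TP63 had 0 reads in all 6 libraries, and 3 to 5 of 10 fibroblast, immune and endothelial markers had reads in each. By the rule set for these genes, WT replicate 1 was left out of the tests, apart from 1 alternative with all 6 libraries. Its values are given apart. eGFP replicate 1 differed more from eGFP replicate 2 (SD 0.622) than WT replicate 2 did (SD 0.311). The names of the deposited data set the GIRK1 libraries apart from the other 4 by a tag of unknown meaning, and what it marks cannot be told apart from the overexpression. The labels do not say whether replicates were separate cultures, so the p-values measure only the spread between these libraries.

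The INK4 locus on chromosome 9 gave almost no reads in this assay. CDKN2A encodes 2 tumor suppressors, the INK4 inhibitor p16 and, from a promoter further upstream, ARF, and CDKN2B encodes the INK4 inhibitor p15. The RefSeq promoter windows of the locus are shown because these are the annotated starts of the genes that had no reads in most libraries: each is 300 bases long and ends shortly past an annotated start in GRCh38.p14, all are on the minus strand, and capitals mark the GC box (GGGCGG or CCGCCC, on both strands), a motif of SP1-like factors.
CDKN2A, upstream start, chr9:21995275-21995574: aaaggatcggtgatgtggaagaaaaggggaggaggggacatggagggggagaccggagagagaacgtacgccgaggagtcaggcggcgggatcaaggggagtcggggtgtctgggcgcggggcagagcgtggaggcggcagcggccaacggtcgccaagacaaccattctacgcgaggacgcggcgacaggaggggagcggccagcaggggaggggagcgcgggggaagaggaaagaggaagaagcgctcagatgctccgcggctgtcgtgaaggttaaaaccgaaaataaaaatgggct
CDKN2A, downstream start, chr9:21974808-21975107: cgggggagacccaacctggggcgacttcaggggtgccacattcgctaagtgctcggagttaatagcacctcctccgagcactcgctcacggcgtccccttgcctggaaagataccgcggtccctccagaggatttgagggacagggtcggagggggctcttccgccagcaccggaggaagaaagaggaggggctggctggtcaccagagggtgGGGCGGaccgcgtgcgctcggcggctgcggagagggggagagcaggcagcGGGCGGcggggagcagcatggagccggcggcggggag
CDKN2B, chr9:22009256-22009555: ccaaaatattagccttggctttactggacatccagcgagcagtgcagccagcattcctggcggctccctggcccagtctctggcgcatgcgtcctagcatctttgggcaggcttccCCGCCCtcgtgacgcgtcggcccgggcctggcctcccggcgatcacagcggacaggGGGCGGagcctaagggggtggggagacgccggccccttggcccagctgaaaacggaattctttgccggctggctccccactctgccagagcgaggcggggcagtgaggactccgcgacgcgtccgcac
The upstream CDKN2A window held 0 GC boxes, the downstream CDKN2A window held 2 and the CDKN2B window held 2. Of all 35116 promoter windows, 45.0% held at least 1. None of the 3 windows held a match to the E2F letters TTTNGCGC (in 1.79% of all windows), the CRE letters TGACGTCA (1.85%), the AP-1 letters TGANTCA (7.71%) or the TATA letters TATAAA (11.5%), searched on both strands. A window was found for 7 of the 10 genes.

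CDKN2A (GRCh38 chr9:21967753-21995301, minus strand) had 0 reads in all 6 libraries, where 3 reads would be 0.187 RPM in WT replicate 2, the deepest, and 1.20 RPM in WT replicate 1, and the exact 95% binomial upper limits were 0.230 and 1.47 RPM. CDKN2B (chr9:22002903-22009363, minus strand) had 11 reads in WT replicate 1, or 4.39 RPM (exact 95% binomial interval 2.19 to 7.85), and 0 in each of the other 5 libraries. In WT replicate 1 CDKN2B was thus 23.5-fold above the level that 3 reads give in WT replicate 2. These intervals and limits cover counting error only, since the amplicon reads carried no molecular identifiers. CDKN2A and CDKN2B could not be tested in any comparison, because both had 0 reads in the 5 libraries of the fit. In the alternative with all 6 libraries, CDKN2B did not pass the filter on low counts.

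A row at 0 was common: 4970 of 20802 genes (23.9%) had 0 reads in all 6 libraries. The CDKN2A and CDKN2B amplicons were rich in GC, at 73.6% and 72.3%, and among the 581 amplicons of at least 70% GC the share at 0 in all 6 libraries was 27.7%, against 23.8% among the rest. A pattern like that of CDKN2B, with at least 11 reads in WT replicate 1 and 0 in the other 5 libraries, was found for 169 genes (0.812%).

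Of 10 neighbours on 9p21 with an amplicon, 3 also had 0 reads in all 6 libraries. One was MTAP, the gene next to CDKN2A, which encodes an enzyme of methionine salvage, is commonly expressed and is often lost with CDKN2A in tumors; its amplicon had 44.6% GC. The nearest neighbours with reads in every library were chosen after their values were seen. They were KLHL9, a substrate adaptor of a CUL3 ubiquitin ligase, whose midpoint lies 649 kb on the MTAP side of CDKN2A (68 to 245 reads a library), and DMRTA1, a DM domain gene 470 kb on the other side (8 to 23 reads). Between KLHL9 and MTAP, IFNE had 3 to 8 reads in WT replicate 2 and the eGFP and GIRK1 libraries and 0 in WT replicate 1. IFNA1, also between them, had 0 reads in all 6 libraries. Of the genes listed, the stretch around CDKN2A with 0 reads in WT replicate 2, eGFP and GIRK1 thus covered MTAP, CDKN2A and CDKN2B. Reads were present on both sides of this stretch. DNA was not assayed, so a missing gene and a silent gene cannot be told apart.

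**Figure D1:**
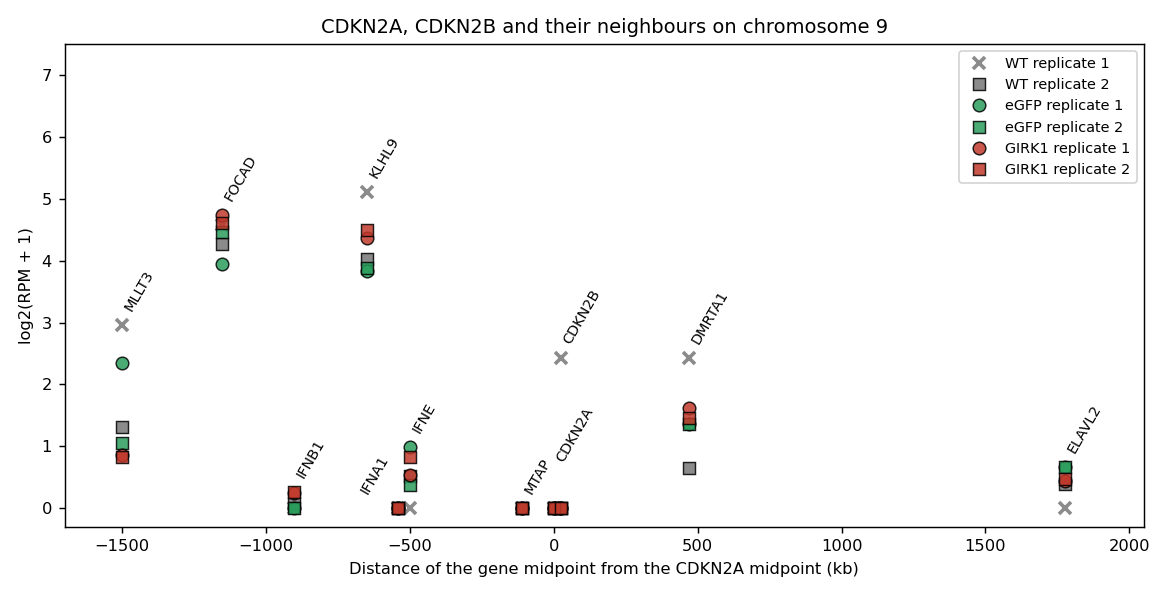
log2(RPM + 1) of CDKN2A, CDKN2B and 9 of their neighbours in each of the 6 libraries (colour, library group; circle or cross, replicate 1; square, replicate 2; the cross is WT replicate 1), against the distance of each gene's midpoint from that of CDKN2A in kb. MTAP and CDKN2A sit at 0 in all 6 libraries and CDKN2B in all but WT replicate 1, with the symbols at 0 drawn on top of each other, while KLHL9 and DMRTA1 on either side are above 0 in every library.

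Of the 8 other genes, 0 passed the test in GIRK1 against eGFP (edgeR's quasi-likelihood test, Benjamini-Hochberg adjusted p below 0.05), where 188 of 11779 genes tested passed, or 1.60%. None of the 8 passed in GIRK1 against the 3 controls (both eGFP libraries with WT replicate 2), where 91 genes rose and 47 fell of 11389 (1.21%), nor in GIRK1 against WT replicate 2 alone (0.229%). In each of these comparisons 0 of the 8 reached an unadjusted p below 0.05, which 18.8%, 18.7% and 7.38% of all genes tested did, and DESeq2 likewise called 0. Both comparisons with eGFP rest on the same GIRK1 and eGFP libraries and are not independent of each other. The median log2 fold change of the 8 genes was 0.04 in GIRK1 against eGFP and 0.03 against the 3 controls, beside 0.02 and -0.01 over all genes tested. A smaller amount of RNA per cell and fewer cells expressing a gene cannot be told apart in these bulk libraries.

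**Figure D2:**
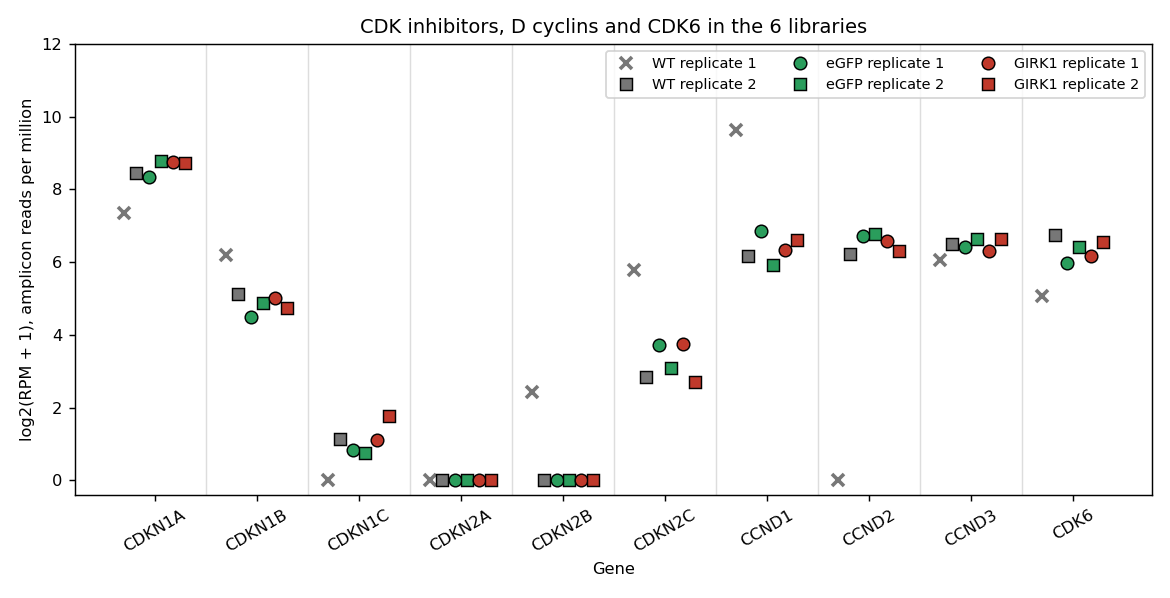
log2(RPM + 1) of the 10 genes in each of the 6 libraries (colour, library group; circle or cross, replicate 1; square, replicate 2; the cross is WT replicate 1). The GIRK1, eGFP and WT replicate 2 libraries lie close together for each gene, while WT replicate 1 is far above them for CCND1 (789 RPM) and at 0 for CCND2.

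Among the CIP/KIP inhibitors, CDKN1A encodes p21, which stops the cell cycle after DNA damage. CDKN1A (chr6:36676460-36687339, plus strand) had 427 and 421 RPM in the GIRK1 libraries, 322 and 439.5 RPM in the eGFP libraries and 347 RPM in WT replicate 2. Both GIRK1 values lay between the eGFP values. The log2 fold change was 0.12 in GIRK1 against eGFP (SE 0.22, adjusted p = 0.792), with a 95% interval from 0.759-fold to 1.56-fold, and 0.18 against the 3 controls (SE 0.18, adjusted p = 0.630). A doubling of CDKN1A RNA therefore lay outside the interval.

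CDKN1B encodes p27, which holds cyclin E and CDK2 in check in resting cells. CDKN1B (chr12:12715058-12722371, plus strand) had 31.3 and 25.9 RPM in the GIRK1 libraries, 21.7 and 28.5 RPM in the eGFP libraries and 33.6 RPM in WT replicate 2. The groups overlapped, and the log2 fold change was 0.15 against eGFP (95% interval -0.42 to 0.72) and 0.01 against the 3 controls (-0.50 to 0.53).

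CDKN1C encodes p57, the product of an imprinted gene. CDKN1C (chr11:2883213-2885773, minus strand) was close to the limit of detection, with 13 and 25 reads in the GIRK1 libraries, 4 and 7 in the eGFP libraries and 19 in WT replicate 2. As RPM these were 1.17 and 2.42, then 0.780 and 0.684, then 1.18. Both GIRK1 libraries were above both eGFP libraries, but WT replicate 2 lay just above GIRK1 replicate 1. The counting interval of eGFP replicate 2 reached 1.41 RPM (exact 95% binomial), above the lower value of the GIRK1 group, and that of the shallower eGFP replicate 1 reached further. The log2 fold change was 1.27 against eGFP (SE 0.71, 95% interval -0.41 to 2.94, adjusted p = 0.369) and 0.95 against the 3 controls (SE 0.53, 95% interval -0.31 to 2.21, adjusted p = 0.379). Without GIRK1 replicate 2 the estimate against the 3 controls was 0.34.

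A rule with no test asked for mean RPM at least 2-fold apart and for a coefficient of variation (SD over mean) under 0.7 in both groups. It picked 10.3% of the genes tested in GIRK1 against eGFP, and 4.95% as higher in GIRK1. Among the 8 genes it picked CDKN1C alone, at a ratio of 2.45 with coefficients of variation of 49.1% in GIRK1 and 9.29% in eGFP. Libraries that did not overlap between GIRK1 and eGFP were common, at 54.0% of genes (29.2% with GIRK1 above eGFP and 24.8% with GIRK1 below), and of the 8 genes 1 stood above, CDKN1C, and 1 below, CCND2. Against the 3 controls, where 41.2% of genes did not overlap in either direction, all 8 overlapped.

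The genes whose pattern was most like that of CDKN1C, the member with the smallest p against the 3 controls, were IFITM2, an interferon-induced membrane protein, PNPT1, a polynucleotide phosphorylase of mitochondria, and HDX. Their root mean square difference from CDKN1C in centred log2 CPM over the 6 libraries was 0.264, 0.291 and 0.297, against a median of 1.16 over 11389 genes. The 6 include WT replicate 1, where CDKN1C had 0 reads, and CDKN1C had at most 25 reads in any library. These 3 genes were picked as the closest, so their small differences follow from the choice. Among the 12 genes near CDKN1C on 11p15 that had an amplicon, 0 of the 8 tested passed in GIRK1 against eGFP and 0 of 7 against the 3 controls.

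CDKN2C, which encodes the INK4 inhibitor p18, was the only INK4 gene of the 3 with reads in every library. CDKN2C (chr1:50960745-50974633, plus strand) had 12.4 and 5.51 RPM in the GIRK1 libraries, 12.3 and 7.43 RPM in the eGFP libraries and 6.11 RPM in WT replicate 2. The GIRK1 replicates differed 2.26-fold from each other, more than the group means did. The log2 fold change was -0.17 against eGFP (SE 0.48, 95% interval -1.30 to 0.96) and 0.06 against the 3 controls (SE 0.46), and the interval against eGFP ran from 0.407-fold to 1.95-fold. Without GIRK1 replicate 1 the estimates became -0.86 and -0.63, and neither passed the test.

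Of the D cyclins, cyclin D1 (CCND1) is the member most often amplified in breast cancer. CCND1 (chr11:69641087-69654474, plus strand) had 79.7 and 96.1 RPM in the GIRK1 libraries, 114 and 60.1 RPM in the eGFP libraries and 70.7 RPM in WT replicate 2. Both GIRK1 values lay between the eGFP values, which were 1.90-fold apart. The log2 fold change was -0.04 against eGFP (SE 0.35, 95% interval -0.86 to 0.78) and 0.07 against the 3 controls (SE 0.32). The sign turned with the eGFP library kept: the log2 fold change was 0.57 without eGFP replicate 1 and -0.48 without eGFP replicate 2, with adjusted p = 0.110 and 0.0974. The neighbours of CCND1 on 11q13, which are often amplified with it, had an amplicon in 10 cases, and 0 of the 5 tested passed in GIRK1 against eGFP and 0 of 5 against the 3 controls.

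CCND2 encodes cyclin D2, which many breast tumors silence. CCND2 (chr12:4273772-4305350, plus strand) had 93.9 and 78.7 RPM in the GIRK1 libraries, 105 and 109 RPM in the eGFP libraries and 74.1 RPM in WT replicate 2. The GIRK1 values were below both eGFP values and above WT replicate 2. The log2 fold change was -0.35 against eGFP (SE 0.21, 95% interval -0.83 to 0.14, adjusted p = 0.397), -0.18 against the 3 controls (SE 0.23, adjusted p = 0.719) and 0.24 against WT replicate 2 alone (SE 0.25, adjusted p = 0.902). The difference between the controls themselves was larger than any of these: CCND2 was 0.59 higher in log2 units in eGFP than in WT replicate 2 (SE 0.26, 95% interval -0.02 to 1.20), which also did not pass the test (adjusted p = 0.953).

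CCND3 encodes cyclin D3. CCND3 (chr6:41934933-42050357, minus strand) had 77.4 and 98.3 RPM in the GIRK1 libraries, 84.1 and 97.6 RPM in the eGFP libraries and 89.8 RPM in WT replicate 2. The GIRK1 values spanned all 3 controls. Its log2 fold change of -0.08 against eGFP had a 95% interval of 0.656-fold to 1.36-fold, and that of -0.06 against the 3 controls an interval of 0.715-fold to 1.28-fold.

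CDK6 (chr7:92604921-92836594, minus strand) encodes one of the kinases that the D cyclins activate. It had 71.3 and 92.9 RPM in the GIRK1 libraries, 62.4 and 85.1 RPM in the eGFP libraries and 107 RPM in WT replicate 2. WT replicate 2 was the highest of these libraries and the groups overlapped. The log2 fold change was 0.12 against eGFP (SE 0.24, 95% interval -0.45 to 0.69), -0.06 against the 3 controls (SE 0.24) and -0.36 against WT replicate 2 (SE 0.29).

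**Figure D3:**
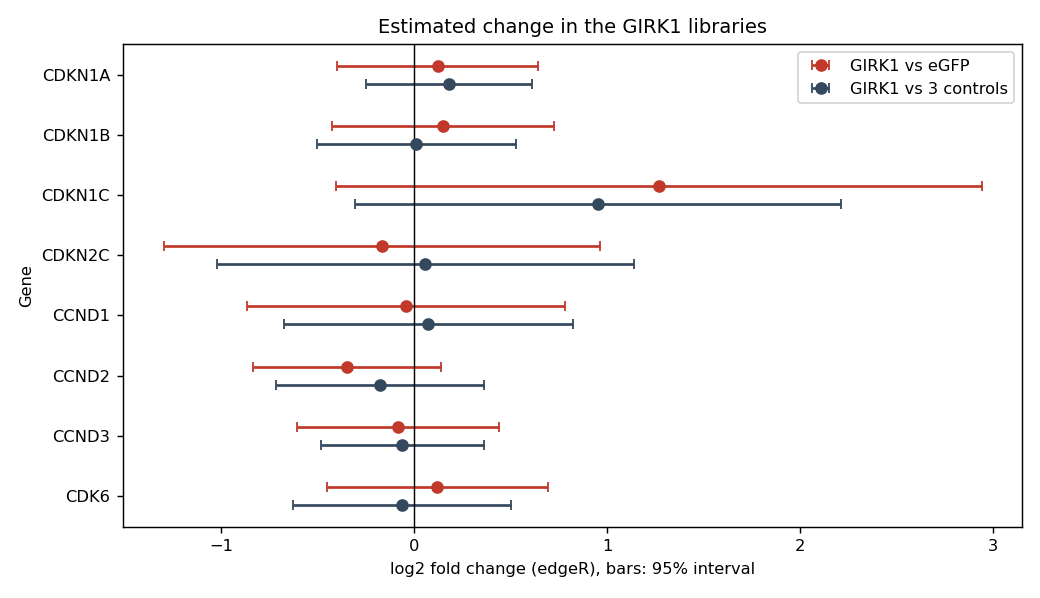
log2 fold change of the 8 tested genes in GIRK1 against eGFP (red) and against the 3 controls (dark blue), with 95% intervals from edgeR. Every interval spans 0, and CDKN1C has the widest one against eGFP (-0.41 to 2.94) and CDKN1A and CCND2 among the narrowest.

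The controls were also compared with each other. In eGFP against WT replicate 2, 0 of 11779 genes passed the test (percent called 0), 418 (3.55%) had an unadjusted p below 0.05 and DESeq2 called 5. Of the 8 genes 0 passed. Their log2 differences ran from -0.65 for CDKN1C to 0.74 for CDKN2C. WT had 1 library in this fit and was assumed to vary like the other groups. Without eGFP replicate 2, where each group had 1 library and the spread came from the GIRK1 libraries alone, 1268 of 11739 genes passed, CCND1 among them (log2 difference 0.81, SE 0.23, adjusted p = 0.0467).

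The make-up of the D cyclin reads was compared between libraries. Amplicons differ in how well they amplify and lengths are fixed by design, so a share says how a gene's reads moved between libraries and not which cyclin had more RNA. CCND1 took 31.7% and 35.2% of the D cyclin reads in the GIRK1 libraries, 37.7% and 22.6% in the eGFP libraries and 30.1% in WT replicate 2. CCND2 took 37.4% and 28.8% in GIRK1, 34.5% and 40.8% in eGFP and 31.6% in WT replicate 2. The GIRK1 and control shares overlapped for CCND1, CCND2 and CCND3. The summed D cyclin level overlapped as well, at 251 and 273 RPM in GIRK1, 303 and 266 RPM in eGFP and 235 RPM in WT replicate 2.

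**Figure D4:**
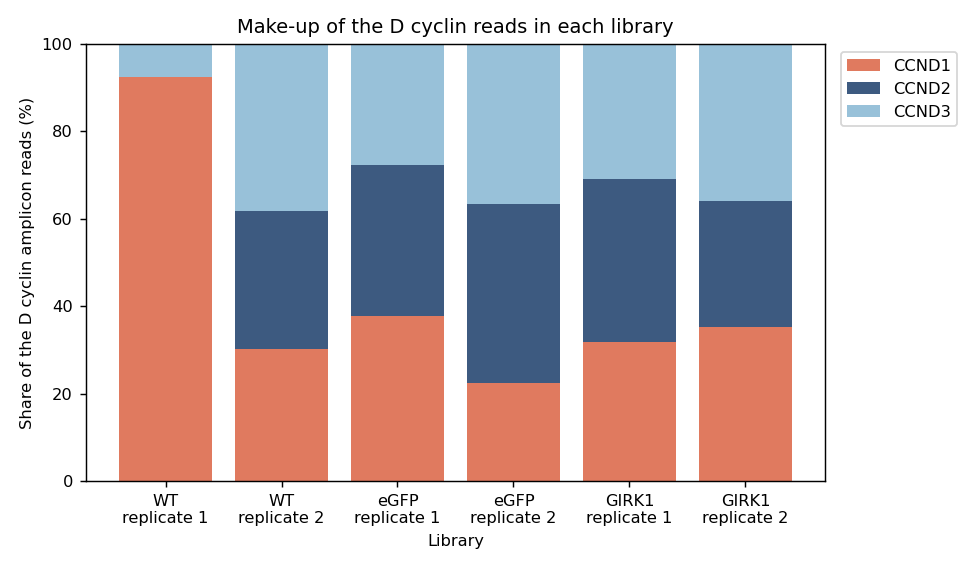
Share of the reads of CCND1, CCND2 and CCND3 (stacked bars, percent of the summed D cyclin reads) in each of the 6 libraries. The 5 libraries from WT replicate 2 to GIRK1 replicate 2 hold all 3 cyclins, whereas CCND1 makes up 92.4% in WT replicate 1, where CCND2 has 0 reads.

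CDK4, the other kinase that the D cyclins activate, had 129 and 129 RPM in the GIRK1 libraries, 158 and 156 RPM in the eGFP libraries and 233 RPM in WT replicate 2. Both GIRK1 libraries were below all 3 controls, yet CDK4 did not pass the test (log2 fold change -0.32 against eGFP, adjusted p = 0.418, and -0.52 against the 3 controls, adjusted p = 0.264). CDK6 took 35.5% and 41.9% of the CDK4 and CDK6 reads in the GIRK1 libraries, 28.3% and 35.3% in the eGFP libraries and 31.5% in WT replicate 2. GIRK1 replicate 1 had nearly the same share as eGFP replicate 2, with exact 95% binomial intervals of 33.5% to 37.5% and 33.4% to 37.2%.

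WT replicate 1 is compared with WT replicate 2 without a test, since it is a single library. The 2 libraries were at least 2-fold apart at 3616 of 9212 genes. Of the 9 genes with reads, 4 had an exact 95% counting interval in WT replicate 1 wholly above those of both eGFP libraries and WT replicate 2, as did 21.6% of all 15832 genes with reads, and 4 had one wholly below, as did 14.2%. These intervals hold counting error alone and not the spread between samples. CCND1 had 789 RPM there, 11.2 times its level in WT replicate 2, and CDKN2C had 53.9 RPM, 8.82 times that level. CDKN1B was 2.17 times as high (73.0 RPM), whereas CDKN1A (164 RPM), CCND3 (65.0 RPM) and CDK6 (32.3 RPM) stood at 0.472, 0.725 and 0.302 times the level of WT replicate 2. CCND2 had 0 reads in WT replicate 1 against 1188 in WT replicate 2, and was thus at least 61.9-fold lower. CDKN1C had 0 reads too, but the limit of 1.20 RPM there lay above its level in WT replicate 2, so a difference was not detectable at this depth. Of the CDK4 and CDK6 reads, CDK6 took 9.29% in WT replicate 1. These differences came from the single library that also stood apart in the luminal and basal markers given above. The part of those markers in these differences was not tested. With WT replicate 1 counted as a control, the CCND1 estimate in GIRK1 against the controls went from 0.07 to -1.47 (adjusted p = 0.825), and 7 genes in all passed.

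The other genes of the pathway were taken from fixed lists. Of 12 other CDKs, cyclins and partners, 0 passed in GIRK1 against eGFP or against the 3 controls. Their medians were -0.29 and -0.40 in log2 units. At an unadjusted p below 0.05 in edgeR, 4 were lower and 0 higher in each comparison. Of all genes tested, 18.8% and 18.7% reached that level in either direction. CDK2, the kinase that CIP/KIP proteins inhibit, had 65.0 and 51.7 RPM in GIRK1, 119 and 65.8 RPM in eGFP and 53.4 RPM in WT replicate 2, with log2 fold changes of -0.71 and -0.48. CCNE1, the cyclin E1 that binds CDK2, had 7.20 and 6.28 RPM in GIRK1, 8.78 and 7.04 RPM in eGFP and 5.49 RPM in WT replicate 2. CDK2 was lower in both GIRK1 libraries than in both eGFP libraries, as were 24.8% of all genes tested, and WT replicate 2 lay between its GIRK1 values. For CCNE1 the GIRK1 and eGFP values overlapped. Neither gene passed the test.

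Downstream of the D cyclin kinases, 0 of 14 genes of the RB family, E2F and the DREAM complex passed in either comparison (medians 0.26 and 0.21). RB1, the pocket protein that the kinases phosphorylate, had 91.9 and 96.0 RPM in GIRK1, 62.2 and 82.4 RPM in eGFP and 99.2 RPM in WT replicate 2. E2F1 drives S phase genes. It had 16.3 and 8.22 RPM in GIRK1, 20.7 and 4.79 RPM in eGFP and 4.30 RPM in WT replicate 2. Its replicates differed more from each other than the GIRK1 and eGFP groups did. Of 16 genes for the ubiquitin turnover of cyclins and inhibitors 0 passed (medians -0.13 and -0.15), among them SKP2, which marks p27 for degradation (72.3 and 53.8 RPM in GIRK1, 95.6 and 61.5 RPM in eGFP, 55.7 RPM in WT replicate 2).

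MDM2, a ubiquitin ligase, had 251 and 190.3 RPM in GIRK1, 71.4 and 159.0 RPM in eGFP and 155 RPM in WT replicate 2. Both GIRK1 values were above all 3 controls, but MDM2 did not pass (log2 fold changes 0.91 and 0.77, adjusted p = 0.234 and 0.263).

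Of 27 regulators known to act on these genes, 1 fell in GIRK1 against eGFP and 0 fell against the 3 controls. ID1, an inhibitor of differentiation factors that can repress CDKN2A, had 50.8 and 55.7 RPM in GIRK1, 161 and 126 RPM in eGFP and 73.1 RPM in WT replicate 2. It fell by 1.47 in log2 units against eGFP (SE 0.24, adjusted p = 0.0425) but did not pass against the 3 controls (log2 fold change -1.20, SE 0.35, adjusted p = 0.151). MYC, which can repress CDKN1A and CDKN2B and induce CCND2, had 376 and 433 RPM in GIRK1, 648 and 554 RPM in eGFP and 632 RPM in WT replicate 2. Its GIRK1 values were below all 3 controls but it did not pass (log2 fold changes -0.62 and -0.62, adjusted p = 0.218 and 0.160).

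Among 19 tested proliferation markers, 2 fell and 0 rose in GIRK1 against eGFP and likewise against the 3 controls. Against WT replicate 2 alone 0 passed. At an unadjusted p below 0.05 in edgeR, 12 were lower against eGFP and 11 against the 3 controls, with 0 higher in either. Of all genes tested, 18.8% and 18.7% reached that level in either direction. CCNB2, a mitotic B cyclin, had 58.0 and 65.4 RPM in GIRK1, 147 and 161 RPM in eGFP and 156 RPM in WT replicate 2, and fell by 1.36 in log2 units against eGFP (SE 0.21, adjusted p = 0.0339) and by 1.35 against the 3 controls (SE 0.17, adjusted p = 0.0152). PLK1, a mitotic kinase, fell by 1.82 against eGFP (adjusted p = 0.0375) and did not pass against the 3 controls (log2 fold change -1.66, adjusted p = 0.0621). AURKA, another mitotic kinase, fell by 2.25 against the 3 controls (adjusted p = 0.0454) on 16 and 15 reads in the GIRK1 libraries against 29 to 96 in the controls, and did not pass against eGFP (log2 fold change -2.36, adjusted p = 0.0518). The median of the 19 markers was -1.03 against eGFP and -1.05 against the 3 controls, whereas that of the 8 CDK inhibitor, D cyclin and CDK6 genes was 0.04 and 0.03. The difference between these lists was not tested. The lists were chosen with earlier results of these libraries known, so their counts are not independent evidence of a direction.

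**Figure D5:**
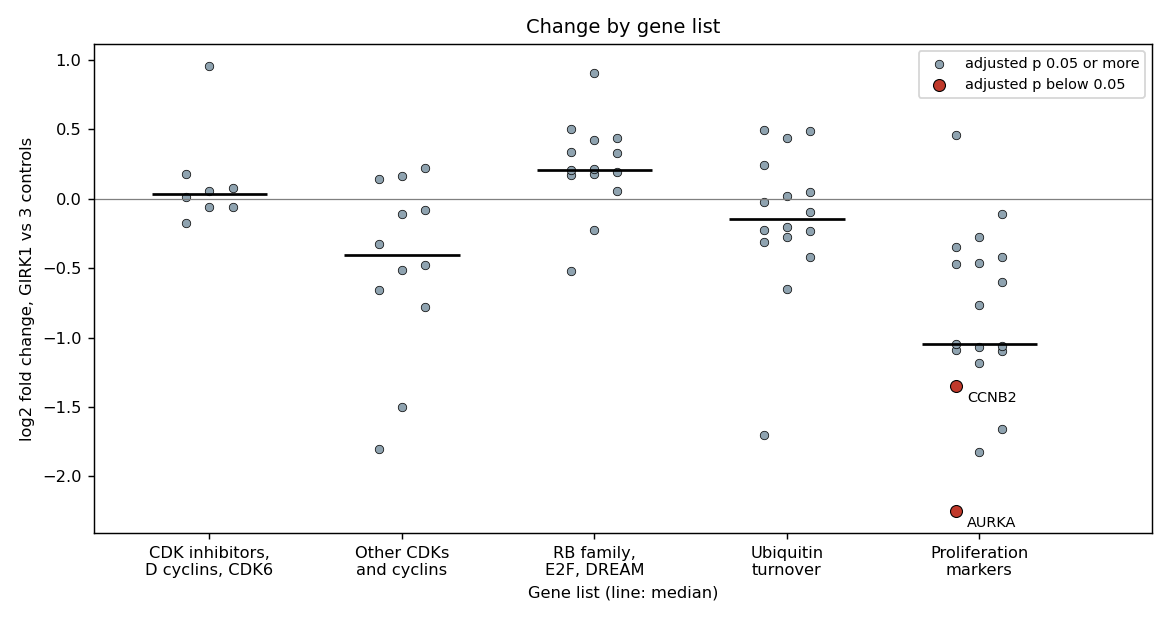
log2 fold change of each tested gene in GIRK1 against the 3 controls by gene list (points; horizontal line, the list's median; red, adjusted p below 0.05 by edgeR). All 8 CDK inhibitor, D cyclin and CDK6 genes are grey and 7 of them lie near 0, and CCNB2 and AURKA, both below 0, are the red points among the 5 lists drawn.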

How the data were processed

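The 6 libraries, all labelled MCF10A, were grouped by their labels. Mapping, by the authors, used the Ion Torrent suite and a transcriptome reference of amplicons. They deposited, for 20812 amplicons, whole-number read counts, which are not normalized, and RPM values, which are those counts scaled to the library's total. The 10 spike-in rows had 0 reads and were left out. The test was that of edgeR 4.0.16 in R 4.3.3 (glmQLFit and glmQLFTest, TMM, filterByExpr, Benjamini-Hochberg over all genes tested, threshold 0.05) on the counts of 5 libraries, and DESeq2 1.42.0 served as an alternative. Standard errors were derived from the F value. Intervals for single libraries are exact Clopper-Pearson intervals at 95%. The procedure was tested on simulated data that had the same dispersion for every gene and no library standing apart. That check does not cover a library that differs from its replicate. Gene positions came from GENCODE v29 (GRCh38) by symbol and promoters from RefSeq (GRCh38.p14). How reads of near-identical copies were handled is not given in the sources used here, and 1 amplicon per gene does not tell isoforms apart, CDKN2A included.

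The 10 genes and all lists were chosen with earlier results of these data known. All 10 are named. From each pathway list the genes that passed in GIRK1 against eGFP or against the 3 controls are named (at most 4 a list), with CDK4, CDK2, CCNE1, RB1, E2F1, MDM2, MYC, SKP2 and MTAP whatever their values, and with the 3 genes most like the member of the smallest p. Results that need certain other genes of the lists are not reported here. Alternatives were other normalizations, filters, the DESeq2 test, all 6 libraries, a replicate block and leaving out each library. Counting covering reads in place of total reads was added after the data were seen.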

Additional observations from a re-analysis of the deposited data

Results flagged for a closer look

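WT replicate 1 was left out of the tests, apart from the alternative with all 6 libraries, and in it 4 of the 9 genes with reads had an exact 95% counting interval wholly above those of both eGFP libraries and WT replicate 2. Of all 15832 genes with reads, 21.6% did so. The 4 were CDKN1B at 73.0 RPM (21.7 to 33.6 RPM in the 3 controls), CDKN2B at 4.39 RPM (0 reads in the controls), CDKN2C at 53.9 RPM (6.11 to 12.3 RPM) and CCND1 at 789 RPM (60.1 to 114 RPM). Another 4, CDKN1A, CCND2, CCND3 and CDK6, had an interval wholly below, as did 14.2% of all genes with reads. The intervals cover counting error alone. The luminal markers with reads numbered 13 of 13 in the same library. Their part in these values was not tested.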

How the results depend on the processing

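In GIRK1 against eGFP, against the 3 controls and against WT replicate 2, 0 of the 8 tested genes passed under every alternative run, with smallest adjusted p of 0.0974, 0.123 and 0.362. In eGFP against WT replicate 2 the same held but for CCND1 without eGFP replicate 2 (adjusted p = 0.0467), so that leaving out 1 library gave 0 to 1 calls. Their estimates, mostly near 0, changed sign in 10 of 103, 19 of 103, 10 of 95 and 4 of 95 cases in the 4 comparisons. Among the estimates that did not pass, 3, 11, 8 and 7 moved by over 1 SE. The CCND1 estimate that passed also moved by over 1 SE, from 0.38 to 0.81 (SE 0.43 in the main fit). The counts of all genes that passed moved far more, and the causes were not tested. In the order GIRK1 against eGFP, the 3 controls and WT replicate 2, then eGFP against WT replicate 2, the counts became 865, 374, 133 and 6 with no filter and 677, 806, 128 and 5 with DESeq2. With all 6 libraries they were 0, 7, 0 and 0. With at least 10 reads in every library, the first became 107 and the third 16. Only 7 of the 8 genes were tested in that setting, since CDKN1C did not reach 10 reads in the eGFP libraries. Leaving out 1 library gave 159 to 2997, 19 to 984, 34 to 576 and 5 to 1268. In the first, 2997 was reached without eGFP replicate 2 and 973 without eGFP replicate 1. With the replicate block the counts were 549, 558, 77 and 1, and 0 of the 8 genes passed. The shared numbers were not treated as a pairing, since the correlation of same-numbered deviations was 0.194, 0.142 and 0.0417. On TMM-scaled CPM, the ratio of WT replicate 1 to WT replicate 2 was 0.407 for CDKN1A and 9.63 for CCND1. With covering reads CDKN2A stayed at 0 and CDKN2B at 11 reads over the 6 libraries. The check with end-to-end reads was not run, and the settings without WT replicate 2 gave no value for its 2 comparisons.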
